A study of Mus musculus with 8 samples.

Results

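To ask whether imprinted loci became active when CAF-1 was lost, RNA-seq counts of 38 imprinted genes were followed in immortalized mouse granulocyte-macrophage progenitors (iGMPs). The genes were taken by name as mouse genes with expression from a single parental allele in at least some tissue, and no threshold on their expression was set. Of the 38, 35 had a row in the count files of 34199 genes, and Kcnq1ot1, Snurf and Peg13 were not analysed here. The 8 libraries formed 4 groups of 2 libraries each. All came from C57Bl/6 bone marrow progenitors that carry a lysozyme promoter-driven GFP reporter and HOXA9 fused to the estrogen receptor, so that estradiol keeps HOXA9 active, and all were grown with stem cell factor.

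Uninduced cells, kept in estradiol at 150 ng/ml, were taken at 0 h. For CAF-1 OFF, the medium held 500 µM IPTG for 48 h with estradiol kept, which switched on an shRNA against Chaf1b, the gene of a CAF-1 subunit. IPTG-treated control cells were given IPTG for the same 48 h in estradiol. The study's methods describe a control vector with a spacer sequence, but the labels of these libraries do not name the vector. HOXA9 OFF cells spent 48 h without estradiol, which lets them mature into neutrophils. The lines are subclones per the study's methods. The supplement of the study speaks of independent subclones for RNA-seq tracks at a single locus, but the labels do not tie a library to a subclone or a culture, so p-values measure the spread between libraries, which may be technical.

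Imprinted genes lie in clusters, each governed by an imprinting control region whose DNA is methylated on the chromosome from only the mother or only the father. Many promote or restrain fetal growth and are silenced in most adult cells, and several clusters are known for roles in blood stem cells, among them the Dlk1-Meg3 cluster and the Igf2-H19 cluster. CAF-1 deposits histones H3 and H4 behind the replication fork, where silent chromatin has to be rebuilt in each cell cycle. The counts sum the maternal and the paternal allele, so they show the amount of RNA and not the allele that made it. In bulk RNA, more cells with a transcript and more transcript per cell cannot be told apart.

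Total gene counts ran from 14044284 to 22423837 per library. Chaf1b checked the CAF-1 labels. Its level was 96.8 and 100 CPM (each count divided by the total in units of 1000000 counts, with totals scaled by edgeR's TMM factors) in uninduced, 95.1 and 102 in IPTG-treated control, 18.7 and 9.72 in CAF-1 OFF and 48.3 and 41 in HOXA9 OFF cells. Reads outside any gene made up 14.6% of the counted reads in IPTG-treated control replicate 1 and 5.3% to 7.79% in the other libraries. Summed markers of granulocyte-macrophage progenitors (Cd34, Kit, Mpo, Elane, Prtn3 and Ctsg) reached 5560 to 15600 CPM in every library. The lowest sums were those of HOXA9 OFF, at 7550 and 5560 CPM. Cd34, Kit, Mpo and Ctsg were lower there than in both uninduced libraries, and Elane and Prtn3 were not. Summed neutrophil markers (Ltf, Ngp, Camp, S100a8 and S100a9) had 4.02 to 6.01 CPM in the 4 control libraries, 49.8 and 78.4 in CAF-1 OFF and 7100 and 4870 in HOXA9 OFF cells.

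Most imprinted genes were silent or nearly so in all 4 states. Of the 35 measured, 10 had no read in any library: H19, Zim1, Peg10, Ndn, Magel2, Mkrn3, Snrpn, Airn, Dcn and Zdbf2. A count of 0 allows up to 3 counts, which is 0.128 to 0.212 CPM depending on the library. A further 9 never passed 3 counts: Igf2, Mirg, Peg3, Usp29, Sgce, Plagl1, Phlda2, Zrsr1 and Nap1l5. Genes at 0 in all libraries were 28.6% of the imprinted genes and 38% of all genes.

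A mean above 1 CPM in at least 1 group was reached by 9 of the 35, or 25.7%, and by 35.9% of all genes. The 9 were Grb10, Slc22a18, Rian, Impact, Gnas, Nespas, Inpp5f, Mcts2 and H13. The count above 1 CPM was 5 in uninduced cells, 6 in IPTG-treated control cells, 7 in CAF-1 OFF cells and 7 in HOXA9 OFF cells. Impact, Gnas, Inpp5f and H13 passed 1 CPM in all 8 libraries. The low-count filter, which asked for about 0.516 CPM in 2 libraries, kept 12 imprinted genes, or 34.3% of those measured and 38.2% of all genes. The 12 were Grb10, Cdkn1c, Slc22a18, Ascl2, Mest, Impact, Nnat, Gnas, Nespas, Inpp5f, Mcts2 and H13. Of 11 maternally expressed genes measured 4 passed, and of 21 paternally expressed genes 5 passed. The other 3, whose expressed allele depends on tissue or transcript, all passed.

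**Figure D1:**
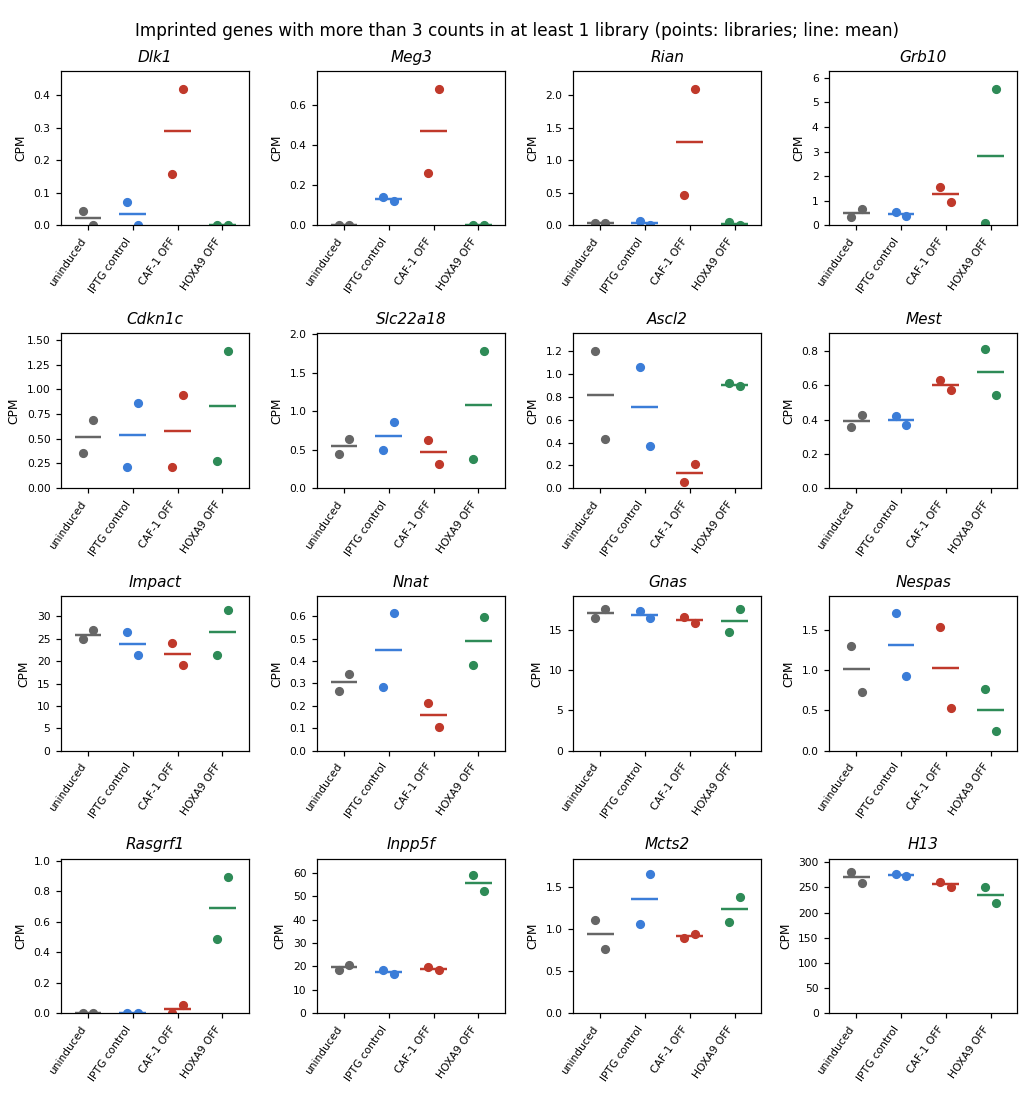
Level in CPM (y axis, linear from 0, a separate scale per panel) of the 16 imprinted genes with more than 3 counts in at least 1 library. Points are the 2 libraries of each group and lines their mean. The 4 well-expressed genes H13, Impact, Gnas and Inpp5f sit at similar heights in uninduced, IPTG-treated control and CAF-1 OFF libraries, Inpp5f stands out in HOXA9 OFF cells, and Dlk1, Meg3 and Rian are highest in CAF-1 OFF cells at levels from 0.158 to 2.09 CPM.

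No imprinted gene above the filter passed the test for a change after CAF-1 loss. Against uninduced cells, 0 of 12 were called by edgeR's quasi-likelihood test (Benjamini-Hochberg FDR under 0.05 over all genes and at least 1.5-fold), whereas 14% of all 13080 genes tested were called. Against IPTG-treated control cells it was again 0 of 12, beside 12.8% of all genes. An unadjusted p under 0.05 was reached by 1 of the 12 in each of these comparisons, Ascl2 both times, and by 36.8% and 35.4% of all genes. DESeq2 called 0 of the 12. Looking at higher calls alone, 10.5% of all genes were called higher than in uninduced cells and 9.56% higher than in IPTG-treated control cells, and 0 of the 12 imprinted genes were. The median log2 fold change of the 12 was -0.06 against uninduced and -0.12 against IPTG-treated control cells, and that of all genes was 0.01 in each comparison.

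H13, which encodes the intramembrane protease signal peptide peptidase, was the most highly expressed imprinted gene per length, at 29.9 CPM per kilobase of exon in uninduced cells. It spans chromosome 2, 152495197 to 152534406 on the plus strand (mm9, GENCODE vM1). H13 had 281 and 259 CPM in uninduced, 277 and 272 in IPTG-treated control, 261 and 251 in CAF-1 OFF and 251 and 218 in HOXA9 OFF cells. The CAF-1 OFF libraries overlapped the uninduced ones and lay below both IPTG-treated control libraries by a margin of a few percent. The log2 fold change was -0.08 (95% interval -0.32 to 0.17) against uninduced cells and -0.10 (-0.34 to 0.14) against IPTG-treated control cells, so both intervals stayed inside the 1.5-fold limit of 0.58 on the log2 scale.

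Mcts2, a retrogene that sits in an intron of H13 on the same strand and is expressed from the paternal allele, was close to 1 CPM. It had 1.11 and 0.77 CPM in uninduced, 1.06 and 1.66 in IPTG-treated control, 0.89 and 0.94 in CAF-1 OFF and 1.09 and 1.39 in HOXA9 OFF cells. The CAF-1 OFF libraries lay within the range of the uninduced ones and just below the IPTG-treated control and HOXA9 OFF libraries. Unspliced H13 RNA and Mcts2 RNA cannot be told apart in these counts.

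Impact encodes an inhibitor of the amino acid sensor kinase GCN2 and is paternally expressed. Its level was 25.0 and 26.9 CPM in uninduced, 26.6 and 21.3 in IPTG-treated control, 24.1 and 19.1 in CAF-1 OFF and 21.5 and 31.4 in HOXA9 OFF cells. CAF-1 OFF lay just below uninduced but overlapped IPTG-treated control. The log2 fold change against uninduced was -0.26 (-0.77 to 0.25), which leaves room for a fall of 1.5-fold but not for a rise of that size.

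The Gnas cluster makes the stimulatory G protein alpha subunit from Gnas and, from the opposite strand, the noncoding RNA Nespas of the paternal allele. Gnas held 16.4 and 17.6 CPM in uninduced, 17.3 and 16.4 in IPTG-treated control, 16.6 and 15.8 in CAF-1 OFF and 14.7 and 17.5 in HOXA9 OFF cells, so that all 4 groups overlapped. Its log2 fold change in CAF-1 OFF was -0.07 (-0.43 to 0.29) against uninduced and -0.06 (-0.42 to 0.31) against IPTG-treated control cells. Nespas had 1.29 and 0.73 CPM in uninduced, 1.70 and 0.92 in IPTG-treated control, 1.53 and 0.52 in CAF-1 OFF and 0.76 and 0.25 in HOXA9 OFF cells. The CAF-1 OFF libraries overlapped those of each other group, and HOXA9 OFF lay below the IPTG-treated control. Whether the counting used the strand was not given in the sources used here, and 22% of Gnas exon bases and 31.4% of Nespas exon bases lie opposite an exon of another gene, so reads of these partners may be mixed.

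Inpp5f was the imprinted gene with the clearest change, and it moved in HOXA9 OFF cells, not after CAF-1 loss. It encodes a phosphoinositide phosphatase, and in the brain a shorter transcript that starts inside the gene comes from the paternal allele alone. The gene covers chromosome 7, 135754842 to 135839939 on the plus strand (mm9, GENCODE vM1), and a count per gene does not separate the imprinted transcript from the main one. Its levels were 18.6 and 20.8 CPM in uninduced, 18.4 and 16.8 in IPTG-treated control, 19.7 and 18.5 in CAF-1 OFF and 59.0 and 52.3 in HOXA9 OFF cells. Both HOXA9 OFF libraries lay far above the other 6, which were close to each other.

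In HOXA9 OFF cells Inpp5f was 2.83-fold higher than in uninduced cells (log2 fold change 1.5, SE 0.134, 95% interval 1.19 to 1.81, edgeR quasi-likelihood FDR 6.97e-05). Leaving out any library kept the FDR between 0.000113 and 0.00136. Against uninduced cells, the change in CAF-1 OFF was -0.04 (-0.35 to 0.27), and against IPTG-treated control cells it was 0.12 (-0.19 to 0.43). The direct comparison of CAF-1 OFF with HOXA9 OFF gave a log2 fold change of -1.54 (FDR 0.000102 by the same test). Inpp5f was the only imprinted gene called between HOXA9 OFF and uninduced cells, 1 of 12, beside 47.2% of all genes called in either direction and 25.2% called higher. The median log2 fold change of the 12 in that comparison was 0.53 and that of all genes 0.01. CAF-1 OFF against HOXA9 OFF called 2 of the 12, beside 43.5% of all genes.

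The other gene called in that last comparison was Ascl2, a maternally expressed basic helix-loop-helix factor of the trophoblast and of intestinal stem cells. Its level was low everywhere, and the lowest values were those of the CAF-1 OFF libraries. Raw counts were 27 and 10 in uninduced, 15 and 6 in IPTG-treated control, 1 and 4 in CAF-1 OFF and 17 and 18 in HOXA9 OFF cells. On the CPM scale this was 1.20 and 0.43, 1.06 and 0.37, 0.05 and 0.21, and 0.92 and 0.89, in the same order. Both CAF-1 OFF libraries lay below all 6 others.

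The log2 fold change of Ascl2 was -2.57 (SE 0.88, 95% interval -4.62 to -0.53) against uninduced cells, with an unadjusted p of 0.0202 and an FDR of 0.0749 from edgeR's quasi-likelihood test, which misses the threshold. Against IPTG-treated control cells it was -2.37 (-4.49 to -0.25, FDR 0.108). Only against HOXA9 OFF cells did it pass, at -2.73 (SE 0.88, edgeR FDR 0.0315). That call was lost when either CAF-1 OFF library or either HOXA9 OFF library was left out, with FDR values from 0.0562 to 0.167.

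The start regions of these genes differ in the density of CpG dinucleotides, the sites that carry DNA methylation. RefSeq (GRCm38.p6) gave a window from 250 bases before to 50 after the gene start for 30 of the listed genes. The windows of the 2 genes called in a test are printed with each CpG in capitals. Inpp5f lies at chr7:128611115-128611414 on the plus strand with 15 CpGs, at the start of the main transcript. Ascl2 lies at chr7:142969215-142969514 on the minus strand with 23.
Inpp5f: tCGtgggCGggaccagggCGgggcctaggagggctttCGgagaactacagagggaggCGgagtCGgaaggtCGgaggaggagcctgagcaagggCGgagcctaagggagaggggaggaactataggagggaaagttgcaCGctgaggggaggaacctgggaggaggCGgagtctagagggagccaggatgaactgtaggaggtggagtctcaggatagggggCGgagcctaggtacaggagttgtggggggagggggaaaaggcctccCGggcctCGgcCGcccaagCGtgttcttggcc
Ascl2: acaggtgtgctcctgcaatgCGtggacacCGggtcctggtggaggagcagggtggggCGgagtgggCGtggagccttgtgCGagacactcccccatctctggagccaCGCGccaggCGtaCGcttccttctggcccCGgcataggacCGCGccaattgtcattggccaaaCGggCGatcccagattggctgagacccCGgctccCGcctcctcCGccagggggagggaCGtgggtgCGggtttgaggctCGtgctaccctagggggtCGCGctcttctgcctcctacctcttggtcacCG

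The median over the windows of all 32851 promoters was 7 CpGs. It was 21 (range 2 to 45) for 9 imprinted genes above the count filter and 13 (range 0 to 26) for 19 below it, with the window listed first taken for each gene. The hexamer TGCCGC, which the imprint-keeping factor ZFP57 reads when methylated, was searched on both strands. It occurred in the window listed first for 9 of the 30 genes and in 11.6% of all windows, and further start windows of Mest, Igf2 and Snrpn held it too, and neither Inpp5f nor Ascl2 held it. A match is a description of letters and not of binding.

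**Figure D2:**
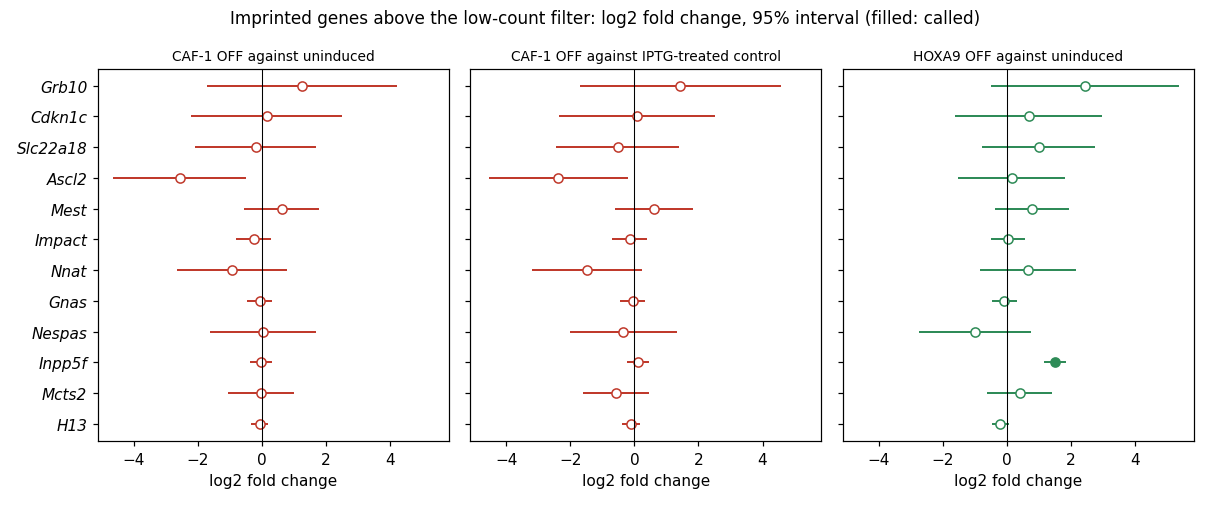
Log2 fold change (x axis) of the 12 imprinted genes above the low-count filter in 3 comparisons, with 95% intervals from edgeR's quasi-likelihood fit as bars. Filled points are called and open points are not, and Inpp5f in HOXA9 OFF cells at 1.5 is the filled point. The intervals of H13, Gnas and Inpp5f are narrow and include 0 in both CAF-1 comparisons, and those of the genes near 1 CPM span several units.

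The rest of the genes above the filter were close to 1 CPM, where intervals were wide. Grb10, an adaptor that dampens insulin and IGF receptor signaling, had raw counts of 8 and 16 in uninduced, 8 and 6 in IPTG-treated control, 30 and 18 in CAF-1 OFF and 2 and 112 in HOXA9 OFF cells. The CPM values were 0.36 and 0.68, 0.57 and 0.37, 1.58 and 0.94, and 0.11 and 5.55. CAF-1 OFF lay above both control groups with no overlap, while the HOXA9 OFF libraries were the lowest and the highest of all 8.

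The Grb10 log2 fold change was 1.26 against uninduced cells (-1.67 to 4.20, edgeR FDR 0.508) and 1.43 against IPTG-treated control cells (-1.68 to 4.54, FDR 0.477). In HOXA9 OFF it was 2.43 (FDR 0.13), and this value turned on which library was kept. It became 3.40 (FDR 0.00158) without HOXA9 OFF replicate 1 and -2.20 (FDR 0.111) without replicate 2.

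Other genes of the Kcnq1ot1 cluster on chromosome 7, to which Ascl2 belongs, did not pass the test. Cdkn1c encodes the cyclin-dependent kinase inhibitor p57 and had 0.36 and 0.68 CPM in uninduced, 0.21 and 0.86 in IPTG-treated control, 0.21 and 0.94 in CAF-1 OFF and 0.27 and 1.39 in HOXA9 OFF cells. Replicate 2 was the higher of the 2 libraries in each group, and the groups overlapped. Its log2 fold change in CAF-1 OFF was 0.14 against uninduced cells, with an interval of -2.19 to 2.47. The transporter gene Slc22a18 had 0.45 and 0.64, 0.49 and 0.86, 0.63 and 0.31, and 0.38 and 1.79 CPM in the same order of groups. Its groups overlapped as well, and the change against uninduced cells was -0.20 (-2.05 to 1.65). Phlda2, a placental growth regulator of the same cluster, had 1 count in all, in uninduced replicate 1.

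Mest, a paternally expressed gene for a hydrolase-fold protein, had 0.36 and 0.43 CPM in uninduced, 0.42 and 0.37 in IPTG-treated control, 0.63 and 0.58 in CAF-1 OFF and 0.81 and 0.55 in HOXA9 OFF cells. CAF-1 OFF lay above both control groups, at a log2 fold change of 0.61 (-0.52 to 1.75, edgeR FDR 0.401) against uninduced cells. Of Mest exon bases, 23% lie opposite exons of Copg2. Nnat, which encodes the endoplasmic reticulum proteolipid neuronatin, went the other way, with 0.27 and 0.34, 0.28 and 0.61, 0.21 and 0.10, and 0.38 and 0.60 CPM in that order. The values of CAF-1 OFF were the lowest of the 4 groups, and the change was -0.93 (-2.62 to 0.77, edgeR FDR 0.394) against uninduced cells and -1.49 (-3.18 to 0.20, FDR 0.187) against IPTG-treated control cells. Each of these intervals holds changes beyond 1.5-fold in at least 1 direction, so the depth does not show that such genes stayed level.

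Below the filter, reads of the Dlk1-Meg3 cluster appeared mainly in CAF-1 OFF cells. In this cluster the paternal allele makes Dlk1, a membrane protein related to Notch ligands, and the maternal allele makes the noncoding RNAs Meg3, Rian, which is the host of small nucleolar RNAs, and Mirg, which is the host of microRNAs. Rian had raw counts of 1 and 1 in uninduced, 1 and 0 in IPTG-treated control, 9 and 40 in CAF-1 OFF and 1 and 0 in HOXA9 OFF cells. The CAF-1 OFF libraries were above all others, and they differed from each other, at 0.47 and 2.09 CPM.

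Meg3 had 0 and 0 counts in uninduced, 2 and 2 in IPTG-treated control, 5 and 13 in CAF-1 OFF and 0 and 0 in HOXA9 OFF cells. Dlk1 had 1 and 0, 1 and 0, 3 and 8, and 0 and 0 counts in that order. For both genes CAF-1 OFF lay above the other 3 groups with replicate 2 the higher library, at no more than 0.68 CPM for Meg3 and 0.42 CPM for Dlk1. Mirg had 1 count in all, in CAF-1 OFF replicate 1.

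From summed counts, Rian was 29.5 times as high in CAF-1 OFF as in uninduced cells (49 against 2 counts, 95% counting interval 7.73 to 250) and 39.1 times as high as in IPTG-treated control cells (6.7 to 1580). Without CAF-1 OFF replicate 2, which held 40 of the 49 counts, these ratios were 10.9 (2.25 to 103) and 14.4 (2 to 632), and without replicate 1 they were 47.9 and 63.7. Against the IPTG-treated control, leaving out its replicate 2 gave 18.2, and leaving out its replicate 1, which held the only count, gave a bound of at least 6.97-fold. Meg3 was at least 3.53-fold higher than in uninduced cells, taking 3 counts per library as the floor, and 3.59 times the IPTG-treated control (1.18 to 14.6). Without CAF-1 OFF replicate 2 these values were at least 1.97-fold and 2 times (0.431 to 10.1). The Dlk1 ratio was 13.2 (1.92 to 569) against uninduced and 8.79 (1.28 to 378) against IPTG-treated control cells, each resting on 1 control count. Without the control library that had no count, the ratios were 6.48 (0.942 to 279) and 4.08 (0.594 to 176), without the one that had it the bounds were at least 2.24-fold and 1.57-fold, and without CAF-1 OFF replicate 2 no library passed 3 counts. These intervals cover counting error only and not the spread between libraries.

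**Figure D3:**
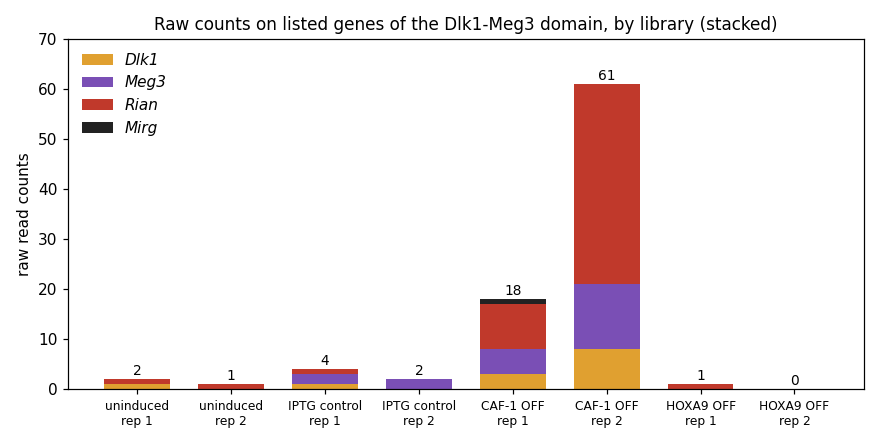
Raw read counts (y axis, linear from 0, not scaled for depth) on Dlk1, Meg3, Rian and Mirg in each library, stacked by gene with the total above each bar. The CAF-1 OFF libraries hold 18 and 61 counts and the other 6 libraries 0 to 4.

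When the low-count filter was dropped and all 21216 genes with a count were fitted, 25 imprinted genes could be tested. Rian was then called against uninduced cells (edgeR quasi-likelihood FDR 0.0144) and against IPTG-treated control cells (FDR 0.02), and Meg3 against uninduced cells (FDR 0.0393) but not against IPTG-treated control cells (FDR 0.443). Dlk1 was not called in either comparison (edgeR FDR 0.232 and 0.362). That made 2 of 25 higher against uninduced cells, where 6.97% of all genes were called higher, and 1 of 25 against IPTG-treated control cells, where 6.35% were, so the share of imprinted genes was near that of all genes. A gene seen in 1 group alone can enter such a fit only through that group.

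These calls were not stable. In DESeq2 with no filter the adjusted p of Rian was 0.0559 against uninduced and 0.0813 against IPTG-treated control cells, and that of Meg3 against uninduced cells was 0.17. Without CAF-1 OFF replicate 2 the edgeR FDR of Rian was 0.374 and 0.402, and that of Meg3 against uninduced cells 0.298. The call of Meg3 was also lost without uninduced replicate 1 or 2 (edgeR FDR 0.183 and 0.146) and without IPTG-treated control replicate 1 or 2 (0.0851 and 0.0845), so in 5 of 8 such fits. Leaving out uninduced replicate 1 or 2 also ended the call of Rian against uninduced cells (edgeR FDR 0.179 and 0.135), and leaving out IPTG-treated control replicate 1 or 2 ended it against that group (0.123 and 0.22), as did leaving out uninduced replicate 1 or 2 (0.0642 and 0.0557). With the replicate number as a block, the FDR of Meg3 against uninduced cells was 0.0595.

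The cluster, from the start of Dlk1 to the last gene of the interval on chromosome 12 (110691033 to 111519307, mm9, GENCODE vM1), holds 66 annotated genes in the files. Of the 62 that are not among the 38, 2 had a count, Rtl1 and Mir369, and 0 had over 3 counts in a library. Of 58 small RNA genes, 1 had a count. The start windows of the cluster's noncoding RNAs are shown from RefSeq (GRCm38.p6) because these RNAs gave most of the CAF-1 OFF reads among the listed genes below the filter. Meg3 starts in the window chr12:109540746-109541045 with 13 CpGs and 1 TGCCGC, and Rian in chr12:109603695-109603994 with neither, both on the plus strand, with CpGs in capitals.
Meg3: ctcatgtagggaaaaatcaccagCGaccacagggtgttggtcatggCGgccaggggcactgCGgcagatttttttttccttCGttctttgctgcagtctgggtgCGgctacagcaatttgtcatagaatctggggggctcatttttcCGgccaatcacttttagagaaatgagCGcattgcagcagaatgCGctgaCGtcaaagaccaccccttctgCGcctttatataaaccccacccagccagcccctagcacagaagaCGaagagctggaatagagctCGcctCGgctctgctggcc
Rian: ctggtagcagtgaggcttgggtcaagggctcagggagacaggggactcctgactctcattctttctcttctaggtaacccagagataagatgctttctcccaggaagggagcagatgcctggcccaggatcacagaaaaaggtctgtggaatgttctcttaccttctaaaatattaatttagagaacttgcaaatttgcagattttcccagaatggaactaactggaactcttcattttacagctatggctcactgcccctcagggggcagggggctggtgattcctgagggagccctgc

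Markers of other cell types were set beside these reads. Summed fibroblast and stroma markers (Col1a1, Col1a2, Col3a1, Pdgfra, Pdgfrb and Lum, of which 4 of 6 passed 3 counts in a library and Col3a1 and Lum did not) were 15.5 and 26.6 CPM in uninduced, 20.6 and 25.9 in IPTG-treated control, 29.5 and 40.9 in CAF-1 OFF and 9.22 and 11.8 in HOXA9 OFF cells. CAF-1 OFF replicate 2 was the highest in these markers as in Rian. Col1a1 alone had 0.0445 and 0.257 CPM in uninduced, 0.212 and 0.368 in IPTG-treated control, 0.79 and 2.77 in CAF-1 OFF and 1.47 and 2.33 in HOXA9 OFF cells. Col1a2 had 0.49 and 0.684, 0.353 and 0.368, 0.79 and 1.25, and 0.38 and 0.149 CPM in that order, and Pdgfrb had 14.9 and 25.6, 20.1 and 25.2, 27.9 and 36.2, and 7.27 and 9.13. Of the 3 of these genes that could be tested, Col1a1 was called higher in CAF-1 OFF than in uninduced cells, 0 were called against IPTG-treated control cells, and Col1a2 and Pdgfrb were called higher than in HOXA9 OFF cells. Outside CAF-1 OFF, uninduced replicate 2 alone reached the cutoff of the low-count filter for Col1a2. That gene therefore had to be high in CAF-1 OFF cells to be tested.

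Summed megakaryocyte markers (Pf4, Itga2b, Gp9 and Vwf, all 4 of 4 above 3 counts) were 23.5 and 25.5 CPM in uninduced, 26.6 and 29.4 in IPTG-treated control, 189 and 215 in CAF-1 OFF and 128 and 177 in HOXA9 OFF cells. The largest part in HOXA9 OFF cells was Itga2b, at 114 and 93.3 CPM. Pf4 (1.25 and 20.8) and Vwf (0.651 and 53.6) rested there on replicate 2. In CAF-1 OFF cells Pf4 had 55.7 and 124 CPM and Itga2b 109 and 74.5. Against uninduced cells, Pf4, Itga2b and Gp9 were called higher in CAF-1 OFF, and Itga2b, Gp9 and Vwf in HOXA9 OFF cells. Erythroid markers (Gata1, Klf1, Epor, Hbb-b1, Hba-a1 and Car1, 3 of 6 above 3 counts, Hbb-b1 and Hba-a1 at no more than 1 and Car1 at 0) were 4.66 to 7.61 CPM in the 4 control libraries, 15.3 and 14.7 in CAF-1 OFF and 22.8 and 12.7 in HOXA9 OFF cells. Of the 3 that could be tested, Epor, the erythropoietin receptor gene, was called higher in CAF-1 OFF than in uninduced cells (edgeR FDR 0.0257) and than in IPTG-treated control cells (0.0142). The transcription factor genes Gata1 (FDR 0.113 and 0.1) and Klf1 (0.873 and 0.688) were not called by the same edgeR test. Lymphoid markers, 3 of 4 above 3 counts and Cd3e at 0, were 90.8 to 136 CPM outside HOXA9 OFF and 4.88 and 9.42 CPM in HOXA9 OFF libraries. The part of any of these cells in the reads of imprinted genes was not tested. CAF-1 OFF replicate 2 was also the library with the lowest Chaf1b.

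Over the 23 measured genes below the filter, summed raw counts were 3 and 1 in uninduced, 5 and 3 in IPTG-treated control, 20 and 70 in CAF-1 OFF and 13 and 20 in HOXA9 OFF cells. The genes of the Dlk1-Meg3 cluster gave most of the CAF-1 OFF counts. In HOXA9 OFF cells most came from Rasgrf1, a paternally expressed Ras guanine nucleotide exchange factor, with 9 and 18 counts there, 0 and 1 in the CAF-1 OFF libraries and 0 in the 4 control libraries. Rasgrf1 was at least 5.17-fold higher in HOXA9 OFF than in uninduced cells. In the fit with no filter it was called (edgeR FDR 0.00692), which with Inpp5f made 2 of 25 higher in that comparison beside 15.7% of all genes. The adjusted p was 0.063 in DESeq2, and the edgeR FDR was 0.0779 without HOXA9 OFF replicate 2.

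The remaining low genes had scattered reads. Igf2, the fetal growth factor, had 2 counts, and Usp29, a deubiquitinase gene, had 1, all in CAF-1 OFF replicate 2. The zinc finger gene Peg3 had 2 counts in that library and 1 in HOXA9 OFF replicate 1. Zrsr1, related to a splicing factor, had 2 and 2 counts in CAF-1 OFF cells and 1 in HOXA9 OFF replicate 1, and Nap1l5 had 1 in CAF-1 OFF replicate 2 and 1 and 2 in HOXA9 OFF cells. Sgce and Plagl1 had 1 count each, in the IPTG-treated control. These genes were at or under 3 counts in every library, where no fold is given. Counting genes with any read, 15 of 35 were seen in uninduced, 17 in IPTG-treated control, 22 in CAF-1 OFF and 17 in HOXA9 OFF cells.

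IPTG and 48 h of culture alone moved no imprinted gene past the threshold. Between IPTG-treated control and uninduced cells, edgeR's quasi-likelihood test called 0 of 12 imprinted genes and 0% of all genes. At an unadjusted p under 0.05 there were 0 of the 12 and 100 of all genes, and DESeq2 called 0 of the 12 and 5 of all genes. The median log2 fold change of the 12 was 0.02 and that of all genes 0.

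A second list held 44 other imprinted genes or genes inside imprinted clusters, of which 40 were in the files and 27 could be tested. In CAF-1 OFF cells 4 were called higher than in uninduced cells and 0 lower, and 3 were called higher than in IPTG-treated control cells, beside the 10.5% and 9.56% of all genes given above. The median log2 fold change of the 27 was -0.07 and -0.03. The called genes were Ppp1r9a, Tnfrsf23, Atp10a and, against uninduced cells only, Pon3.

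Ppp1r9a, a maternally expressed gene for the actin-binding scaffold neurabin in the Peg10-Sgce cluster, had 0.134 and 0 CPM in uninduced, 0.141 and 0.0613 in IPTG-treated control, 3.37 and 6.80 in CAF-1 OFF and 0.271 and 0.248 in HOXA9 OFF cells. It was nearly silent outside CAF-1 OFF, with 3 counts in all in uninduced and 3 in IPTG-treated control cells. The ratio of summed counts was 77.8 (194 against 3 counts, 95% counting interval 26.2 to 380) against uninduced and 51.7 (17.4 to 253) against IPTG-treated control cells, with an edgeR FDR of 0.00611 and 0.00913. Ppp1r9a passed the low-count filter only through the CAF-1 OFF libraries, so a gene of this kind had to differ to be tested at all. With 1 library left out, the ratios lay between 38.1 (without uninduced replicate 2) and 104 (without CAF-1 OFF replicate 1) against uninduced, or at least 39.6-fold without uninduced replicate 1, and between 34.2 (without CAF-1 OFF replicate 2) and 83 (without IPTG-treated control replicate 1) against IPTG-treated control cells. Both edgeR calls of Ppp1r9a were lost without CAF-1 OFF replicate 2. The call against IPTG-treated control cells was also lost without IPTG-treated control replicate 1 or 2. In the same cluster Peg10 was at 0 and Sgce had 1 count.

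Tnfrsf23, a decoy receptor gene at the edge of the Kcnq1ot1 cluster, had 0.401 and 0 CPM in uninduced, 0.424 and 0.491 in IPTG-treated control, 2.37 and 5.7 in CAF-1 OFF and 13.2 and 28.4 in HOXA9 OFF cells. Both treatments lay above both control groups without overlap. The log2 fold change in CAF-1 OFF was 4.31 (SE 0.935, edgeR FDR 0.02) against uninduced and 3.12 (FDR 0.0465) against IPTG-treated control cells, and in HOXA9 OFF it was 6.67 (FDR 0.00066). Both folds against uninduced cells rest on 9 uninduced counts, all in replicate 1. The calls in CAF-1 OFF were lost without CAF-1 OFF replicate 2 (edgeR FDR 0.127 and 0.249). The call against uninduced cells was also lost without uninduced replicate 1 or 2 (0.0514 and 0.0615), and that against IPTG-treated control cells was also lost without CAF-1 OFF replicate 1 (0.0616) or IPTG-treated control replicate 1 or 2 (0.19 each).

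Atp10a, a lipid flippase gene of the central chromosome 7 cluster, was well expressed, at 50.7 and 51.8 CPM in uninduced, 54.6 and 54 in IPTG-treated control, 99.8 and 86.5 in CAF-1 OFF and 36.4 and 30.3 in HOXA9 OFF cells. The treatments moved it in opposite directions, and no groups overlapped. The log2 fold change was 0.86 (SE 0.126, edgeR FDR 0.00683) in CAF-1 OFF and -0.62 (FDR 0.00391) in HOXA9 OFF, both against the shared uninduced libraries. The FDR of the rise was 0.0621 without uninduced replicate 1, and without HOXA9 OFF replicate 2 the fall was -0.49, under 1.5-fold. Against IPTG-treated control cells Atp10a was 0.78 higher (FDR 0.0108), which was lost without CAF-1 OFF replicate 1 or either control library (edgeR FDR 0.0535 to 0.0809). Pon3, a paraoxonase gene, was 1.05 higher than in uninduced cells (edgeR FDR 0.0456), and missed the threshold against IPTG-treated control cells (0.84, FDR 0.0919). Its call was lost in 5 of the 8 fits with 1 library left out, those without CAF-1 OFF replicate 2 (edgeR FDR 0.285), uninduced replicate 1 or 2 (0.133 and 0.179) or IPTG-treated control replicate 1 or 2 (0.07 and 0.0663).

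In HOXA9 OFF cells 6 of the 27 genes of the second list rose and 6 fell, beside 47.2% of all genes called in either direction. Pon2, Pon3, Asb4, Trappc9, Ampd3 and Tnfrsf23 rose, and Igf2r, Slc22a3, Tssc4, Nap1l4, Osbpl5 and Atp10a fell. Asb4 passed the low-count filter only through the HOXA9 OFF libraries, so it had to differ to be tested. Igf2r, the maternally expressed receptor that clears IGF2, had 1.69 and 21.1 CPM in uninduced, 1.55 and 21.5 in IPTG-treated control, 5.47 and 12.3 in CAF-1 OFF and 0 and 0 in HOXA9 OFF cells. Within each of the 3 groups that expressed it, replicate 2 was the higher library. Igf2r was at least 70.1-fold lower in HOXA9 OFF than in uninduced cells (edgeR FDR 0.0195). Without uninduced replicate 2, which held 494 of the 532 uninduced counts, the bound was 10.4-fold, and without replicate 1 it was 130-fold. The call was lost without uninduced replicate 2 (0.0756) or without HOXA9 OFF replicate 1 or 2 (edgeR FDR 0.0577 and 0.0596).

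Slc22a3, the organic cation transporter next to Igf2r, had 51.3 and 48.9, 51 and 50.9, 122 and 43.8, and 0.271 and 0.347 CPM in the same order. Its log2 fold change in HOXA9 OFF was -7.30 (edgeR FDR 5.87e-05). The CAF-1 OFF libraries lay on both sides of the controls, and their change was 0.72 (-0.17 to 1.62, edgeR FDR 0.215). Airn, the paternal noncoding RNA that runs across Igf2r, was at 0 in all libraries.

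**Figure D4:**
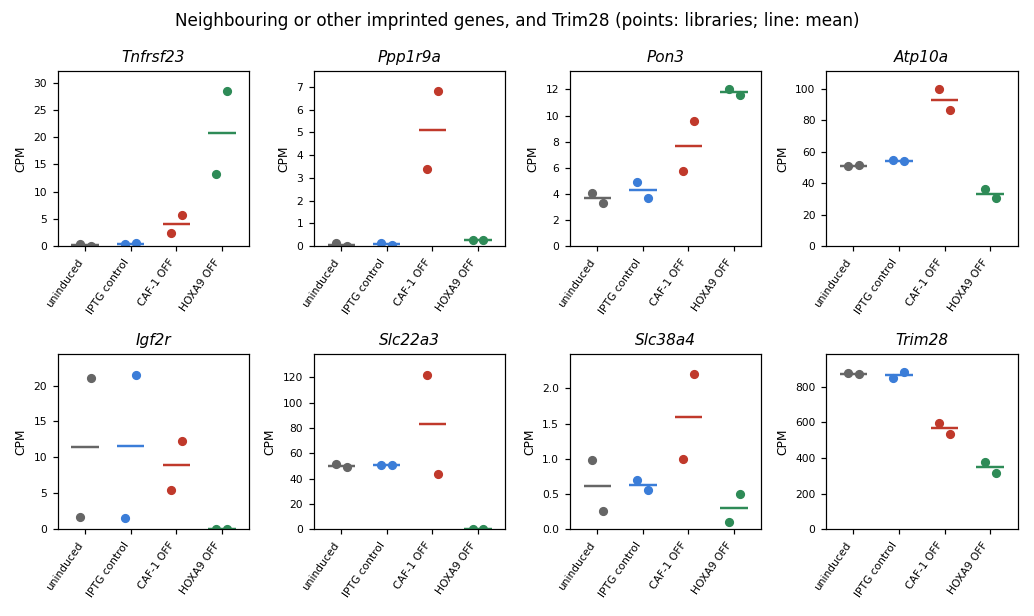
Level in CPM (y axis, linear from 0, a separate scale per panel) of 7 genes in imprinted clusters and of Trim28, with points for the 2 libraries of each group and lines for their mean. Ppp1r9a is high in CAF-1 OFF cells alone at 3.37 and 6.80 CPM, Igf2r is at 0 in HOXA9 OFF cells, and Trim28 is lower in CAF-1 OFF and in HOXA9 OFF cells than in uninduced cells.

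Finally, 23 genes that set, keep or read imprints were examined, of which 20 could be tested. In CAF-1 OFF cells 0 were called higher and 1 lower, the corepressor gene Trim28, against uninduced and against IPTG-treated control cells, where 14% and 12.8% of all genes were called in either direction. Trim28 had 876 and 871 CPM in uninduced, 848 and 882 in IPTG-treated control, 599 and 536 in CAF-1 OFF and 378 and 318 in HOXA9 OFF cells. The HOXA9 OFF, CAF-1 OFF and control libraries lay at separate levels without overlap. Its log2 fold change in CAF-1 OFF was -0.62 against uninduced cells (SE 0.119, edgeR FDR 0.0146), close to the 1.5-fold limit, and it was -0.58 (FDR 0.0174) with scaling to library size alone, just under that limit. Without CAF-1 OFF replicate 2 the FDR was 0.124, and without uninduced replicate 1 or 2 it was 0.0839 and 0.0583. Against IPTG-treated control cells the change was -0.61 (edgeR FDR 0.0164), and -0.56 with scaling to library size alone. That call was lost without CAF-1 OFF replicate 2 (0.143) or IPTG-treated control replicate 1 or 2 (edgeR FDR 0.0828 and 0.103).

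Dnmt1, the maintenance DNA methyltransferase, had 467 and 518 CPM in uninduced, 478 and 512 in IPTG-treated control, 528 and 508 in CAF-1 OFF and 462 and 382 in HOXA9 OFF cells. Its change in CAF-1 OFF was 0.07 (-0.21 to 0.36, edgeR FDR 0.706), inside the 1.5-fold limit. Zfp57 had at most 1 count in any library. In HOXA9 OFF cells the DNA demethylase genes Tet2 and Tet3 rose, and Uhrf1, Dnmt3b, Trim28, Ezh2, Hells, Mbd3 and Tet1 fell, which is 9 of 20 beside 47.2% of all genes.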

How the data were processed

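Bulk RNA-seq of 8 libraries, 2 in each of 4 groups, was analysed. Per the study's methods, the authors prepared libraries with a directional NEBNext kit, aligned reads to mm9 with STAR and counted genes with HTSeq-count. What the authors deposited is the raw count of reads for each gene symbol, without normalization. The annotation version and the strand setting of the counting were not given in the sources used here.

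Groups and replicate numbers came from the labels. Summary rows of HTSeq were kept out of totals and tests. Counts of all 8 libraries were fitted with edgeR 4.0.16 in R 4.3.3 (filterByExpr, TMM factors from 0.894 to 1.06, 1 mean per group, no covariate), and glmQLFTest was run on 13080 genes, with Benjamini-Hochberg adjustment over them. A call needed an FDR under 0.05 and at least 1.5-fold. The biological coefficient of variation was 18.9%. Replicates differed beyond sampling noise (chi-square per degree of freedom from 16.6 to 78.2). A group at 0 was set to 3 counts per library for a lower bound. Ratios of low counts have exact 95% intervals, which cover counting error only.

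The code was tested on simulated counts for CAF-1 OFF against uninduced with 12758 genes tested and 193 changed. The test found 55.2% of genes shifted by 1 and 77.3% of genes shifted by 2 (log2), and called 8 unchanged genes. Alternatives were DESeq2 1.42.0, other scalings and filters, other thresholds, a replicate block, a fit of the compared libraries alone, and leaving out each library. Fits with no filter for single low genes under those settings, the alternatives for genes outside the 38, and ratios of summed counts with a library left out were added after seeing the data.

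The 38 genes and all lists were chosen with earlier results of these data known. Values in every library are given for those of the 38 genes that were called or above 1 CPM in a group mean. The other listed genes were given in part, and the low genes of the Dlk1-Meg3 cluster, Rasgrf1 and the further genes shown by library were chosen after their values were seen. Gene positions are mm9 from GENCODE vM1, counted from 1. Promoter windows are from RefSeq GRCm38.p6, whose coordinates differ from mm9.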

Additional observations from a re-analysis of the deposited data

How the results depend on the processing

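Leaving out 1 library in turn moved the number of imprinted genes called between 0 and 2 in CAF-1 OFF against uninduced, 0 and 1 against IPTG-treated control, 1 and 3 in HOXA9 OFF against uninduced and 1 and 5 in CAF-1 OFF against HOXA9 OFF, and each added call of CAF-1 OFF against a control was Rian or Meg3. It moved all calls between 157 and 2191, 199 and 1965, 5446 and 6140, and 4832 and 5644 in the same order, with the lowest values without uninduced replicate 1, IPTG-treated control replicate 2, uninduced replicate 1 and CAF-1 OFF replicate 2. With no low-count filter the imprinted calls were 2, 1, 2 and 5, and a fit of the compared libraries alone called 1 in CAF-1 OFF against uninduced (Rian). A mean of at least 50 counts, and FDR 0.01 with 2-fold, each left 1 imprinted call in CAF-1 OFF against HOXA9 OFF. FDR 0.01 with 2-fold gave 364, 282, 3579 and 3008 calls over all genes. DESeq2 called 5 genes between IPTG-treated control and uninduced. The number of imprinted genes above 1 CPM was 4 when every library had to pass and 8 to 10 with 1 library left out. By the looser measure of more than 3 counts in a library it was 16, some of which never reached 1 CPM. Without HOXA9 OFF replicate 1, Grb10 passed the threshold in HOXA9 OFF against uninduced (3.40) and in CAF-1 OFF against HOXA9 OFF (-2.14), as did Slc22a18 in the latter (-1.91). Without HOXA9 OFF replicate 2, Grb10 reversed to -2.20 in HOXA9 OFF against uninduced and to 3.45 in CAF-1 OFF against HOXA9 OFF, where it was again called (edgeR FDR 0.0232), in the opposite direction, and Slc22a18 reversed to 0.30 in the latter. The cause of these moves was not tested beyond the fewer or more libraries and genes that each setting holds. With scaling to library size alone, the median over all genes (log2 fold change) was -0.18 in HOXA9 OFF against uninduced and 0.27 in CAF-1 OFF against HOXA9 OFF. Same-numbered CAF-1 OFF libraries did not deviate with those of other groups (r from -0.04 to 0.08), while the other groups did (0.30 to 0.48), so the numbers were not taken as pairs. With the number as a replicate block, imprinted calls were 0, 0, 0, 1 and 2 over the 5 comparisons, as without it. With 2 libraries a group, the 95% intervals of most imprinted genes near 1 CPM span changes well beyond 1.5-fold.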

Other observations

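Several genes of the pathways in which imprinted growth regulators act changed in CAF-1 OFF cells. Of 11 listed genes of IGF signaling, cell cycle control, Notch and cyclic AMP signaling, 10 could be tested. Against uninduced cells, CAF-1 OFF had 4 of these called higher and 1 called lower, beside 14% of all genes called in either direction and 10.5% called higher. Against IPTG-treated control cells 3 were called higher and 1 lower, beside 12.8% of all genes in either direction and 9.56% higher. Adcy7, at 1.49-fold, was not called there. How the calls of these pathway genes depend on single libraries was not tested. Igf1r, the receptor for IGF1 and IGF2, had 29.4 and 28.1 CPM in uninduced, 37.1 and 27.2 in IPTG-treated control, 57.1 and 74.4 in CAF-1 OFF and 55.9 and 46.5 in HOXA9 OFF cells, with a log2 fold change of 1.19 in CAF-1 OFF (edgeR quasi-likelihood FDR 0.00925). Cdkn1b, a cell cycle inhibitor of the same family as Cdkn1c, had 25.9 and 26.3, 27.8 and 24.7, 49.6 and 50.2, and 85.6 and 62.1 CPM in that order (0.94 in CAF-1 OFF, edgeR FDR 0.0109). Notch1 (1.15) and Adcy7 (0.59) were the other genes called higher, and Cdk4 (-0.64, edgeR FDR 0.0139) was called lower. In HOXA9 OFF cells 5 of the 10 were called higher and 2 lower than in uninduced cells, beside 47.2% of all genes.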
